A study of Mus musculus with 18 samples.

Results

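The genes of the retinoic acid receptors (Rara, Rarb and Rarg) and of the retinoid X receptors (Rxra, Rxrb and Rxrg) were followed across 18 Affymetrix arrays of NaF cells, a mouse mammary carcinoma line. They are 6 of 22180 genes measured, and their probe sets were found by gene symbol. Each was read by 1 probe set that carries no other symbol, namely 17256242 for Rara (Entrez 19401), 17303609 for Rarb (218772), 17322181 for Rarg (19411), 17368550 for Rxra (20181), 17336322 for Rxrb (20182) and 17219110 for Rxrg (20183).

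The series asked how ligands of RAR and of PPARδ change transcription in this line. The arrays fell into 6 groups of 3. Cells of 4 groups were kept for 48 hours in medium with 10% charcoal-treated serum, which is poor in small lipids, before any ligand. For a further 6 hours they had retinoic acid (all-trans), TTNPB or GW1516, each at 1 µM, or served as charcoal control. In full medium (DMEM with 10% FBS), cells received palmitate at 10 µM for 6 hours or served as full-medium control. RAR is activated by retinoic acid, its natural ligand, and by the synthetic TTNPB. GW1516 is a synthetic activator of PPARδ, a nuclear receptor for fatty acids, of which palmitate is a saturated one. All groups are of a single cell line, and the labels do not say whether the replicates were separate cultures. The p-values therefore measure only the spread between these arrays.

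RARs are nuclear receptors that bind DNA as a heterodimer with an RXR. Without ligand the pair recruits corepressors, and a bound retinoid exchanges these for coactivators. RXRs are also the partners of PPARs, liver X receptors, the vitamin D receptor and thyroid hormone receptors. RARα and RARγ are the forms found in many epithelia. The RARβ gene is a classical direct target of RAR, through a retinoic acid response element in its promoter. It is known for loss of expression in human breast carcinoma.

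Such an element is a short core repeated in the same direction with 5 bases between the copies, called DR5. The 250 bases before the annotated start of Rarb are printed because its rise with retinoic acid was the largest change of the 6 genes in any comparison with a control. They come from RefSeq on GRCm38.p6 (chr14:16575477-16575726, minus strand), and the capitals mark the only DR5 match found in any promoter window of the 6 genes.
Rarb: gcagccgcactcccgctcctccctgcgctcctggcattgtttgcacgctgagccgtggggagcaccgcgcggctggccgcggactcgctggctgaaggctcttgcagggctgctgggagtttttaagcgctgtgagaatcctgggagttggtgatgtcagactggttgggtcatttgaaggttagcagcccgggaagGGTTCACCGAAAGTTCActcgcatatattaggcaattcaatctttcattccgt
The match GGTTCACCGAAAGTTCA lies at chr14:16575513-16575529, from 53 to 37 bases before the start and on the strand of the gene. The core searched was A or G, then G, then G or T, then TCA, on both strands. The RefSeq table held 13 windows of 300 bases (250 before to 50 after a start) for the 6 genes, and 1 of the 13 held the motif. Over all genes it was in 32 of 32851 windows (0.0974%), or 31 of 27025 genes. The same cores with 2 bases between them (DR2) or 1 base (DR1) were in none of the 13 windows, against 0.268% and 0.222% of all windows. A match describes the letters only. Of the 31 genes with a DR5 match, 13 were measured, and Rarb alone of these rose with retinoic acid at an adjusted p under 0.05 (limma). The median log2 change of the 13 was 5.57e-05, against -0.03 over all genes.

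The deposited values are log2 expression values. Each serum had its own array scale, with medians of 1.06 to 1.32 in charcoal serum and 0.473 to 0.548 in full medium, so levels are read within a serum. Background was taken as the 95th percentile of 1409 odorant and related receptor genes in each group. It was 1.15 with retinoic acid, 1.29 with TTNPB, 1.29 with GW1516 and 1.31 in charcoal controls, and it was 0.628 with palmitate and 0.595 in full-medium controls. The luminal epithelial genes Krt18, Cldn3 and Cdh1 stood above background in all 6 groups. Krt8 was also above background in all 6, narrowly in charcoal serum (1.60 to 1.85) and at 1.44 to 1.53 in full medium. Of the other 4 of 8 luminal markers, Epcam was above it in the 4 charcoal groups and Krt19 in 4 of 6 groups, and Cldn7 and Esrp1 were under it in all 6. Of 4 endothelial markers Pecam1, Kdr and Tek were under background in all 6 groups, while Cdh5 was above it in all 6, at 7.29 to 8.90. The fibroblast marker Pdgfra was also above it in all 6, at 2.26 to 5.65, while Lum and Dcn were under it throughout. Of the other fibroblast markers, Pdgfrb was above it in 4 groups and Col1a1, Col1a2 and Col3a1 in 1 each. Of 5 immune markers, Cd68 was above it in 6 groups, Ptprc in 4 and Cd3e, Lyz2 and Csf1r in 0. Of 4 adipocyte markers, Plin1 was above it in 4 groups and Adipoq, Cidec and Lep in 0. Of 5 measured basal markers, Trp63 was above it in 4 groups, Krt17 in 2, Acta2 in 1 and Krt14 and Myh11 in 0. The part of these markers in the results was not tested. GW1516 replicate 3 stood apart. Its values lay 0.231 on average from its group mean, against 0.0816 to 0.145 for the other arrays, and its median odorant receptor value was 0.997, against 0.715 and 0.677 on the other GW1516 arrays. The GW1516 differences printed for receptor genes, and for listed genes that passed, are given with and without this array. Group means, their order, the likeness of genes and the shares of all genes include it.

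Of the 6 receptor genes 4 were measurable throughout, Rarb was measurable in charcoal serum alone, and Rxrg was close to background. Rara, Rarg, Rxra and Rxrb exceeded the background of their own array on all 18 arrays, as did 34.7% of all genes. Rarb exceeded it on all 12 charcoal arrays, by 1.09 to 3.09 on the log2 scale, and on none of the 6 full-medium arrays, where it ran from 0.10 to 0.37. Of the 9003 genes above background on all 12 charcoal arrays, 251 were likewise under it on all 6 full-medium arrays (2.79%). Since serum and array scale changed together, a difference in transcript and a difference in scale cannot be told apart here. Rxrg, the RXR form best known from muscle and brain, exceeded background on none of the 12 charcoal arrays. It exceeded it on 5 of 6 full-medium arrays, by at most 0.15. In a bulk measurement, fewer cells with a transcript and less of it per cell cannot be told apart.

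**Figure D1:**
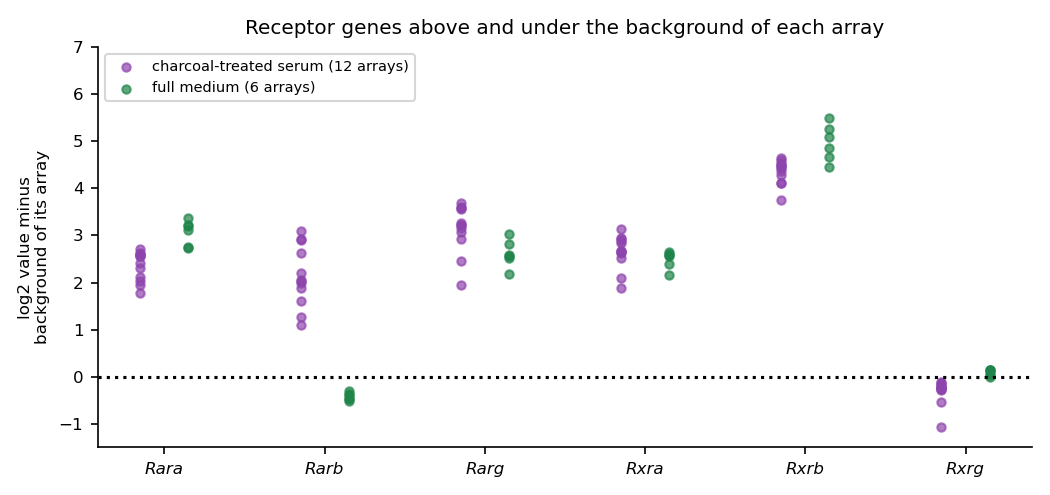
Level of each receptor gene minus the background of the same array (log2 difference, vertical axis), for the 12 charcoal arrays on the left and the 6 full-medium arrays on the right of each gene. Each point is 1 array. Rarb lies above 0 on all charcoal arrays and below 0 on all full-medium arrays, and Rxrg runs from -1.06 to 0.15.

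Retinoic acid raised Rarb and no other receptor gene past the test. Rarb, which encodes RARβ, read 4.28, 4.07 and 4.21 on the retinoic acid arrays, against 3.37, 2.77 and 2.89 on the charcoal control arrays. Every retinoic acid array lay above every control array. The group means were 4.19 ± 0.11 with retinoic acid and 3.01 ± 0.32 in charcoal controls (SD, n = 3 each). That is a rise of 1.18 ± 0.17 on the log2 scale (SE; 95% confidence interval 0.81 to 1.54), or 2.26-fold, with an adjusted p of 0.000448 by limma. Over all genes 5.29% passed this test in either direction and 3.82% passed it upward, and by p Rarb was number 103 of 22180. The rise kept its call under all 30 other settings tried, with log2 changes of 0.93 to 1.36.

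The other receptor genes differed less with retinoic acid, and none of them passed. Rara, the gene of RARα, read 3.78, 3.78 and 3.84 with retinoic acid, against 3.46, 3.28 and 3.31 in charcoal controls. The arrays did not overlap, the difference was 0.45 ± 0.16 (SE), and the adjusted p was 0.129. Rxra, the gene of RXRα, also lay higher on every retinoic acid array, at 4.07, 4.07 and 4.13, against 3.99, 3.60 and 3.95 in controls (0.24 ± 0.14, adjusted p = 0.443). Rxrb, the gene of RXRβ, lay lower on every one, at 5.48, 5.69 and 5.39, against 5.71, 5.99 and 5.74 (-0.29 ± 0.14, adjusted p = 0.299). Rarg, the gene of RARγ, overlapped, at 4.45, 4.84 and 4.83 with retinoic acid, against 4.56, 3.95 and 4.36 in controls (0.42 ± 0.22, adjusted p = 0.375). Groups without overlap are common in this comparison. They made up 24.1% of all genes, beside 5 of the 6 receptor genes, of which Rxrg was under background in both groups. An unadjusted p under 0.05 was found for 3 of the 6 (Rara, Rarb and Rxrb), against 16.4% of all genes.

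**Figure D2:**
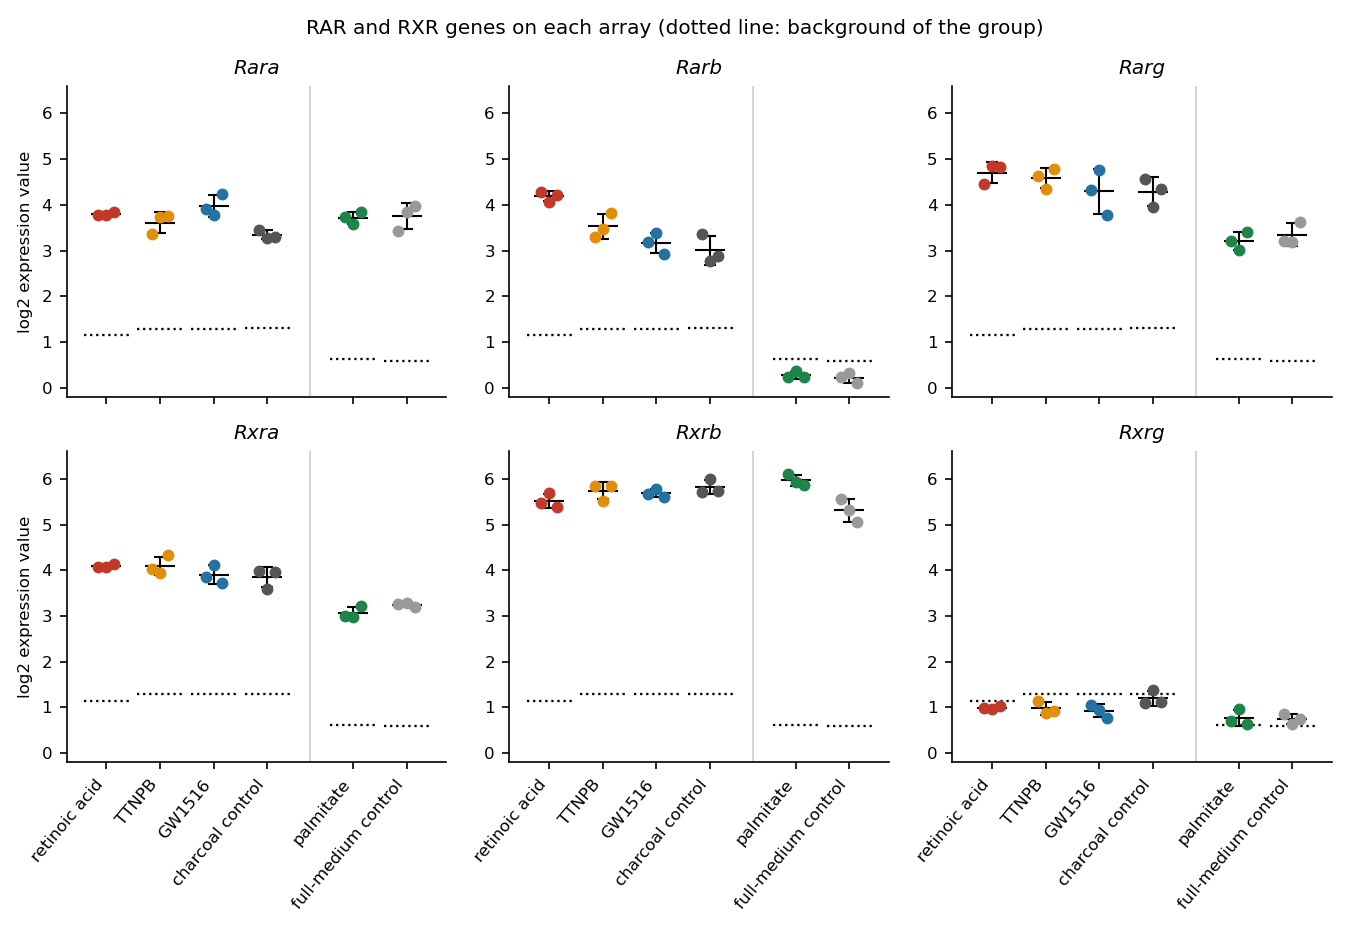
Log2 value of each receptor gene on each of the 18 arrays, by group, with the group mean as a horizontal bar, its SD as whiskers and the background of the group as a dotted line. A grey line separates the charcoal groups on the left from the full-medium groups. The retinoic acid points of Rarb (4.07 to 4.28) sit above all other groups, and the palmitate points of Rxrb (5.87 to 6.11) sit above the full-medium controls (5.06 to 5.56).

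TTNPB moved none of the 6 receptor genes past the test, and 1.26% of all genes passed it. Only Rarb of the 6 had an unadjusted p under 0.05, at 0.00712, against 11.2% of all genes. Its values were 3.29, 3.48 and 3.82 with TTNPB, against 3.37, 2.77 and 2.89 in charcoal controls. The lowest TTNPB array thus lay under the highest control array. The difference was 0.52 ± 0.17 (SE; 95% interval 0.16 to 0.88) with an adjusted p of 0.179. Rara, at 3.36, 3.73 and 3.76 with TTNPB, differed by 0.27 ± 0.16 (adjusted p = 0.614). Rarg differed by 0.30, Rxra by 0.25 and Rxrb by -0.07, with adjusted p-values of 0.595 to 0.935. All 6 receptor genes overlapped with their controls, while 17.9% of all genes did not.

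Retinoic acid and TTNPB, the only pair of RAR ligands here, were given at the same dose and time and can be compared directly. TTNPB carries aromatic rings where retinoic acid has most of its conjugated polyene chain, and both are carboxylic acids. For the 6 receptor genes none of the differences between the ligands passed the test, which 0.153% of all genes did. An unadjusted p under 0.05 was found for 7.27% of all genes and for 1 of the 6. That one was Rarb, with means of 4.19 ± 0.11 with retinoic acid and 3.53 ± 0.27 with TTNPB (SD, n = 3 each). All 3 retinoic acid arrays lay above all 3 TTNPB arrays, as for 9.64% of all genes (16.2% in either direction). The difference was 0.65 ± 0.17 (SE), with an interval of 0.29 to 1.02, an unadjusted p of 0.00131 and an adjusted p of 0.221. The intervals for the other measurable genes were -0.15 to 0.52 for Rara, -0.34 to 0.59 for Rarg, -0.31 to 0.30 for Rxra and -0.51 to 0.07 for Rxrb. These intervals do not show that the ligands act alike on those genes.

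The PPARδ agonist GW1516 raised Rara. The values of Rara were 3.90, 3.79 and 4.25 with GW1516, against 3.46, 3.28 and 3.31 in charcoal controls, with no overlap, as for 16.3% of all genes. The means were 3.98 ± 0.24 with GW1516 and 3.35 ± 0.10 in controls (SD, n = 3 each). The rise was 0.63 ± 0.16 (SE; 95% interval 0.29 to 0.96), or 1.55-fold, with an adjusted p of 0.0424, and 2.57% of all genes passed in either direction and 1.89% passed upward. The highest of these values came from GW1516 replicate 3. Without that array the difference was 0.49 and the adjusted p 0.110, and the call was lost on leaving out any 1 of 13 of the 18 arrays, each of the 3 controls and GW1516 replicate 1 among them. Rarb read 3.19, 3.39 and 2.93 with GW1516 and differed from its control by 0.16 ± 0.17 (adjusted p = 0.721). Rarg, Rxra and Rxrb differed by 0.01, 0.05 and -0.13, with adjusted p-values of 0.707 to 0.994. An unadjusted p under 0.05 was found for 2 of the 6 receptor genes, against 15.4% of all genes. These were Rara and Rxrg, and Rxrg was under background in both groups. Without GW1516 replicate 3 the differences were 0.28 for Rarb, 0.27 for Rarg, 0.14 for Rxra and -0.09 for Rxrb, and none of these passed. GW1516 replicate 3 gave the lowest Rarb, Rarg, Rxra and Rxrb of its group. Between retinoic acid and GW1516, Rara differed by -0.18 ± 0.16 (adjusted p = 0.754), and by -0.05 without GW1516 replicate 3, so a difference between these ligands was not shown for it.

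Set against GW1516 instead of the control, retinoic acid gave the higher Rarb. The means were 4.19 ± 0.11 with retinoic acid and 3.17 ± 0.23 with GW1516 (SD, n = 3 each), a difference of 1.02 ± 0.17 (SE), or 2.03-fold. The adjusted p was 0.00978, in a comparison that 0.352% of all genes passed. The arrays did not overlap, as for 11.9% of all genes. Without GW1516 replicate 3 the difference was 0.90 and the adjusted p 0.0285. Without retinoic acid replicate 1 the adjusted p was 0.0665. TTNPB against GW1516 gave no call among the receptor genes, where 0.0676% of all genes passed. In that comparison 2 of the 6 receptor genes had an unadjusted p under 0.05, against 10.5% of all genes. Rara was lower with TTNPB than with GW1516 by 0.36 on average (log2 difference -0.36, adjusted p = 0.449, no overlap, as for 12.9% of all genes), and Rarb differed by 0.37 (adjusted p = 0.471). These differences were -0.23 for Rara and 0.25 for Rarb without GW1516 replicate 3.

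The order of the charcoal group means was not the same for each gene. For Rarb the order was retinoic acid, TTNPB, GW1516 and control, and only the step between retinoic acid and TTNPB was free of overlap between arrays. For Rara it was GW1516, retinoic acid, TTNPB and control, with overlap between all neighbours but retinoic acid and TTNPB, whose means lay closer (0.18) than the SD of the TTNPB arrays (0.22). For Rarg the order was retinoic acid, TTNPB, GW1516 and control, for Rxra it was TTNPB, retinoic acid, GW1516 and control, and for Rxrb it was control, TTNPB, GW1516 and retinoic acid. All neighbours in these 3 orders overlapped. The retinoic acid, TTNPB and GW1516 comparisons share the same 3 control arrays, so their differences from control are not independent of one another.

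Palmitate raised Rxrb, in full medium. The values of Rxrb were 6.11, 5.92 and 5.87 with palmitate, against 5.56, 5.31 and 5.06 in full-medium controls, and the lowest palmitate array lay above the highest control. Groups without overlap made up 15.2% of all genes. The means were 5.97 ± 0.12 with palmitate and 5.31 ± 0.25 in controls (SD, n = 3 each). The rise was 0.66 ± 0.14 (SE; 95% interval 0.37 to 0.95), or 1.58-fold, with an adjusted p of 0.0309. Of all genes 0.681% passed in either direction and 0.144% passed upward, and by p Rxrb was number 111 of 22180. The call was lost in a fit on the full-medium arrays alone (adjusted p = 0.193) and without any 1 of the palmitate arrays. It was also lost without full-medium control replicate 2 or 3, and narrowly without retinoic acid replicate 1 (adjusted p = 0.051).

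The remaining receptor genes did not pass with palmitate. Rara read 3.73, 3.57 and 3.84 with palmitate, against 3.44, 3.84 and 3.98 in full-medium controls. Rarg read 3.20, 3.01 and 3.42 with palmitate, against 3.22, 3.20 and 3.64. Rxra read 3.01, 2.99 and 3.21 with palmitate, against 3.27, 3.28 and 3.20. In each of these the groups overlapped, and the differences were -0.04, -0.14 and -0.18. Rarb and Rxrg were at or near background in both groups, so no fold is given for them.

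**Figure D3:**
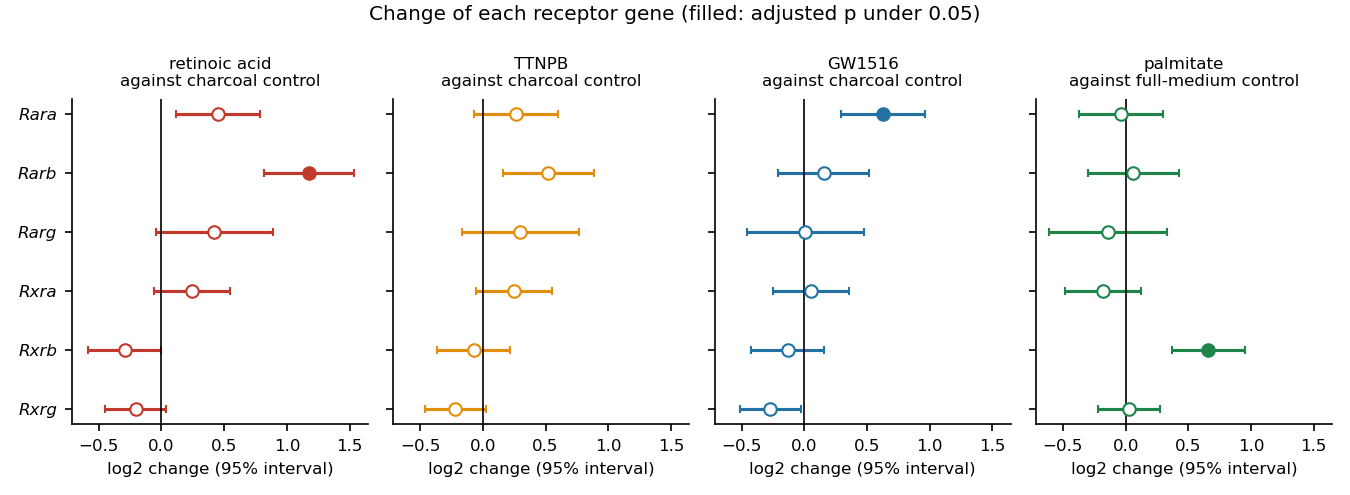
Fitted log2 difference of each receptor gene for each ligand against its same-serum control, with 95% confidence intervals from limma, and filled points where the adjusted p was under 0.05. Rarb with retinoic acid (1.18), Rara with GW1516 (0.63) and Rxrb with palmitate (0.66) are the filled points.

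Whether the response of a gene differed between ligands in the 2 sera was tested as the palmitate effect minus the retinoic acid effect. For Rxrb the effects were 0.66 with palmitate and -0.29 with retinoic acid, a difference of 0.95 ± 0.20 (SE, adjusted p = 0.0121). Of all genes 2.56% passed this test. For Rarb the test has no palmitate response to work on, because Rarb was under background on all 6 full-medium arrays, and no difference in response is reported for it. Against the GW1516 effect, Rxrb differed by 0.79 ± 0.20 (adjusted p = 0.0559) and Rara by -0.67 ± 0.23 (adjusted p = 0.197), and neither passed, where 1.26% of all genes did. Without GW1516 replicate 3 they differed by 0.75 (Rxrb, adjusted p = 0.0473, past the threshold) and -0.53 (Rara, adjusted p = 0.232). For that test 2 of the 6 receptor genes had an unadjusted p under 0.05, against 11% of all genes.

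The 3 receptor genes with a call were set beside all genes that exceeded background in every charcoal group and carry no provisional name, 9764 for each. Likeness was the root mean square difference of the log2 values, each taken relative to its charcoal control mean, over the 12 charcoal arrays. Closest to Rarb were Fnip1 (0.198), Gabrp (0.213) and Lockd (0.244), against a median of 0.682 over the candidates. Fnip1 differed from control by 1.22 with retinoic acid, 0.52 with TTNPB and 0.26 with GW1516. Since Fnip1 was chosen for its likeness to Rarb on these same arrays, those values are no separate result. Closest to Rara were Zfp445 (0.0967), Pid1 (0.101) and Nampt (0.104), against a median of 0.472. Closest to Rxrb were Pgd (0.0854), Uqcrq (0.0943) and Ppp1r13l (0.101), against a median of 0.335. The call of Rxrb came from palmitate in full medium, and the full-medium arrays did not enter this likeness. These 3 genes were therefore not chosen for a likeness to its palmitate rise.

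The genes around the receptors were read as 4 lists, which share members. Of the measured genes, Cyp26a1, Cyp26b1, Cyp26c1, Dhrs3, Crabp2, Stra6 and Lrat are in both the retinoid list and the list of RAR targets. Nrip1 is in both the list of corepressors and coactivators and that of RAR targets. The list of RAR targets also holds Rarb itself, so its count with retinoic acid includes the Rarb call. Of all genes 5.29% passed with retinoic acid, and the median log2 change was -0.03. A listed gene is counted as rising or falling only where it passed the test. Of 19 measured genes of retinoid uptake, synthesis, binding and breakdown, 1 rose (5.26%) and none fell, with a median log2 change of -0.11. The gene that rose was Cyp26b1, an enzyme that breaks down retinoic acid, with means of 6.03 with retinoic acid and 3.41 in charcoal controls. Stra6, the retinol uptake receptor, and Rdh10, a retinol dehydrogenase, lay well above background in every group and did not pass. Cyp26a1, Dhrs3 and Lrat were under background in every group. Of 16 classical RAR target genes 5 rose (31.2%) and none fell, with a median of -0.04, close to that of all genes. They were Cyp26b1, Nrip1, Rarb, Tgm2 and Plat.

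Of 16 measured corepressor and coactivator genes 5 rose with retinoic acid (31.2%, against 5.29% of all genes) and none fell, and the median was 0.30, against -0.03 over all genes. Nrip1, a corepressor that binds liganded receptors, rose by 1.39 ± 0.16 (SE, adjusted p = 5.62e-05). Tbl1xr1 and Tbl1x, subunits of the NCoR and SMRT corepressor complexes, rose by 1.20 and 0.56. The coactivator gene Ncoa3 rose by 0.55. The rise of the coactivator gene Ncoa2 by 0.53 (adjusted p = 0.0437) was lost under 16 of 30 other settings, and that of Plat by 0.78 (adjusted p = 0.0432) under 11. With TTNPB 1 of the 16 rose (6.25%, against 1.26% of all genes), Tbl1xr1 (0.86, adjusted p = 0.0394, lost under 14 of 30 settings). With GW1516 2 of the 16 rose (12.5%, against 2.57%), Tbl1xr1 (1.21) and Lcor (0.53, lost under 8 of 30). Without GW1516 replicate 3 the rise of Tbl1xr1 was 1.16, and Lcor did not pass (0.47, adjusted p = 0.0669). Of 12 other partners of RXR, 2 rose with retinoic acid (16.7%), the orphan receptor genes Nr4a2 (1.19) and Nr4a1 (0.42). Nr4a1 alone of the 12 (8.33%) passed with TTNPB (0.40, lost under 19 of 30 settings) and with GW1516 (0.46, lost under 3 of 30). Nr4a2 did not pass with either, at means of 3.79 with TTNPB and 3.67 with GW1516, against 2.89 in charcoal controls. Without GW1516 replicate 3 the GW1516 value of Nr4a1 was 0.30 (adjusted p = 0.000739), and without charcoal control replicate 2 the adjusted p was 0.0539. Ppard, which encodes PPARδ, stood above background in all 6 groups and did not pass in any comparison with a control (adjusted p 0.139 to 1).

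Of the RAR targets, Tgm2 alone (6.25% of 16) passed with TTNPB (0.50) and with GW1516 (0.38, lost under 4 of 30 settings). Plat did not pass with either, but its means were close to that with retinoic acid. They were 4.90 with TTNPB, 4.87 with GW1516 and 4.89 with retinoic acid, against 4.11 in charcoal controls. A rise of Plat particular to retinoic acid was therefore not shown. Over all genes 1.26% passed with TTNPB and 2.57% with GW1516. The GW1516 value of Tgm2 was 0.40 without GW1516 replicate 3, and without charcoal control replicate 2 its adjusted p was 0.0674. Of the 19 retinoid genes none passed with either. With TTNPB 1 of them had an unadjusted p under 0.05 and with GW1516 0 had, against 11.2% and 15.4% of all genes. With palmitate none of the genes in these 4 lists passed, where 0.681% of all genes did. At an unadjusted p under 0.05 there were 1 of 19 retinoid genes, 5 of 16 corepressor and coactivator genes, 0 of 12 RXR partners and 1 of 16 RAR targets, against 7% of all genes. The median log2 change of the 16 corepressor and coactivator genes with palmitate was -0.16, against -0.00137 over all genes. Between retinoic acid and TTNPB 0.153% of all genes passed. In the lists, Cyp26b1 (2.02 higher with retinoic acid, adjusted p = 1.13e-05) and Nrip1 (0.96 higher, adjusted p = 0.0136, lost under 6 of 30 settings) passed. Their group means were 6.03 and 4.77 with retinoic acid, against 4.01 and 3.81 with TTNPB. Rarb, with a difference of 0.65, lay in the same direction and did not pass.

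**Figure D4:**
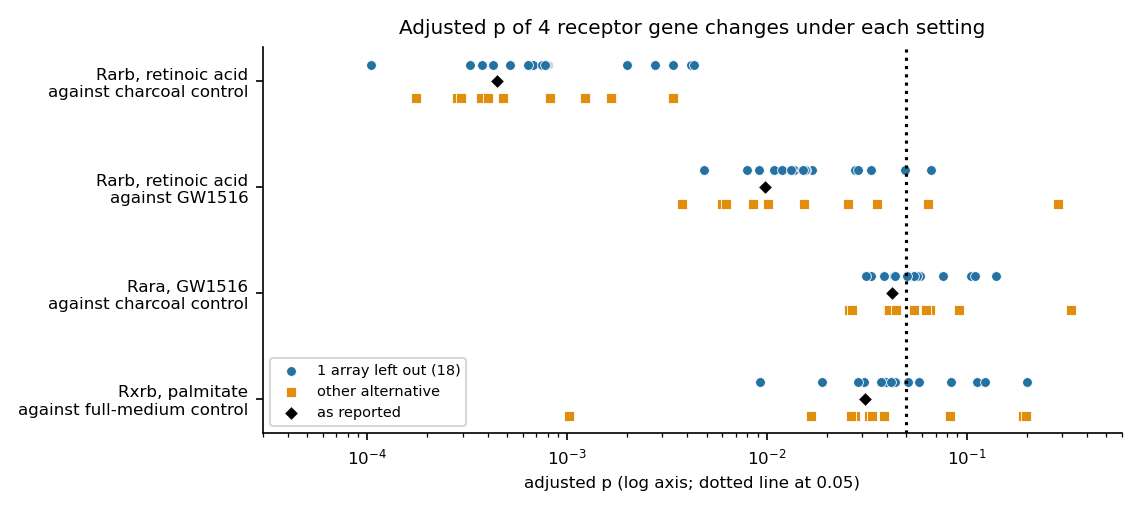
Adjusted p (log axis) of 4 receptor gene changes as reported (diamonds), with 1 array left out in turn (circles) and under other settings (squares), and the threshold of 0.05 as a dotted line. All points of Rarb with retinoic acid against control lie left of the line (0.000105 to 0.0043), and the other changes have points on both sides.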

How the data were processed

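The authors deposited log2 expression values for each probe set of each array. The log2 scale was read from their range (-0.54 to 13.2). RNA was extracted with Qiazol and RNeasy columns and labelled as biotinylated cRNA, per the labels' protocols. The submitters' processing notes name Partek. Its version and the normalization are not given in the sources used here.

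Of 41345 probe sets, 23521 carried 1 symbol, and 23328 had their symbol updated through the Entrez number in a GRCm38.p6 table. The 1814 probe sets of several symbols and the 16010 of none were not tested. For 1082 genes the probe set with the highest mean was used, which left 22180 genes, with no filter on low signal.

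The 6 groups were fitted together in limma 3.58.1 (R 4.3.3) over 18 arrays, with trended moderated variances and 12 residual degrees of freedom. P-values were 2-sided and adjusted by Benjamini-Hochberg over all genes of a contrast, with a threshold of 0.05. The number of arrays limits the precision. Replicate arrays shared at most 2.55% identical values (within 1e-06). The code was tested on simulated data.

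The members, lists and tests were chosen with earlier results of these data known. The 6 genes were tested in every comparison, but the text does not give each one in each comparison. Values of Rxrg, which was close to background, are mostly left out. Also named are the 3 genes most like each called one, and of each list at most 4 members past the test with the largest change. Tgm2 with retinoic acid in the list of RAR targets and Ncoa2 in the list of coregulators complete counts of 5. Ppard, Stra6, Rdh10, Cyp26a1, Dhrs3 and Lrat were named after their values were seen. The TTNPB and GW1516 means of Plat, Nr4a2 and Ncoa2 were likewise given after they were seen. Alternatives were other samples in the fit, a replicate block, other variance priors, quantile normalization, median centring, array weights, a filter on dim genes, other probe set rules, a stricter threshold and each array left out.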

Additional observations from a re-analysis of the deposited data

Results flagged for a closer look

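For Rxrb the response to palmitate in full medium and the response to retinoic acid in charcoal serum differed by a test of the difference itself. Rxrb was higher with palmitate than in full-medium controls by 0.66 and lower with retinoic acid than in charcoal controls on average (log2 change -0.29, which did not pass by itself), a difference of 0.95 with an adjusted p of 0.0121 by limma. The same test also gave a low adjusted p for Rarb (fitted value -1.12, adjusted p = 0.0173), but Rarb was under background on all 6 full-medium arrays, so the value compares no measured palmitate response and shows no difference in response. The ligand, the serum and the scale of the arrays changed together between these responses and cannot be told apart.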

How the results depend on the processing

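The rise of Rarb with retinoic acid kept its direction and call under all 30 alternatives (adjusted p 0.000105 to 0.0043), and the counts of receptor genes called with retinoic acid or TTNPB against control, between retinoic acid and TTNPB and between TTNPB and GW1516 did not move. The count of receptor genes called with GW1516 (1, Rara) fell to 0 on only the arrays compared (adjusted p of Rara 0.333), on only the charcoal arrays (0.0659), after quantile normalization (0.0913), after median centring (0.0625), with array weights (0.0548) and at a threshold of 0.01. With each array left out it ran from 0 to 1. It was 0 without GW1516 replicate 1 or 3, any 1 charcoal control, any 1 retinoic acid array, TTNPB replicate 2 or 3, palmitate replicate 1 or 3, or full-medium control replicate 2 (adjusted p 0.0506 to 0.141). The count with palmitate (1, Rxrb) fell to 0 on only the arrays compared and on only the full-medium arrays, which are the same fit (0.193), after quantile normalization (0.0825), after median centring (0.198) and at 0.01. With each array left out it ran from 0 to 1, and was 0 without any 1 palmitate array, full-medium control replicate 2 or 3 or retinoic acid replicate 1. The count for retinoic acid against GW1516 (1, Rarb) was 0 on only the arrays compared (0.288), on only the charcoal arrays (0.0644) and without retinoic acid replicate 1, a range of 0 to 1. For the palmitate effect minus the retinoic acid effect (2, Rxrb and, with no measurable level in full medium, Rarb) the count was 1 after median centring (Rxrb 0.0839) and 0 at 0.01. It ran from 1 to 2 with an array left out, and was 1 without charcoal control replicate 2, retinoic acid replicate 1 or full-medium control replicate 2. For the palmitate effect minus the GW1516 effect the count of 0 became 1 (Rxrb) with no variance trend, a robust prior, array weights or dim genes left out. It ran from 0 to 1 with an array left out, and was 1 without GW1516 replicate 3 or full-medium control replicate 1. Where not all arrays were used, the fits had fewer samples; the cause was otherwise not tested.

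Changes of sign occurred in 33 of 1608 alternatives for single receptor genes, none of them with a call. These were, under one setting each, Rarg with GW1516 (-0.0346) and Rara with palmitate (0.0384) after quantile normalization, Rxra between retinoic acid and TTNPB (0.0559) after median centring, and Rxrg with array weights between retinoic acid and TTNPB (-0.003425), retinoic acid and GW1516 (-0.0261) and TTNPB and GW1516 (-0.0227). With an array left out, Rxrb ran from -0.13 to 0.0342 with TTNPB. With GW1516, Rarg ran from -0.23 to 0.27 and Rxra from -0.0727 to 0.14. With palmitate, Rara ran from -0.20 to 0.0746, Rarb from -0.000978 to 0.11, Rarg from -0.24 to 0.00149 and Rxrg from -0.0715 to 0.0933. Between retinoic acid and TTNPB, Rxra ran from -0.0833 to 0.11 and Rxrg from -0.0381 to 0.0983. Rxrg ran from -0.0115 to 0.13 between retinoic acid and GW1516 and from -0.0342 to 0.11 between TTNPB and GW1516. For the palmitate effect minus the GW1516 effect, Rarb ran from -0.28 to 0.022 and Rarg from -0.41 to 0.0916.

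Over all genes, counts past the test ran from 518 to 2015 with retinoic acid (1174 as reported), 84 to 833 with TTNPB (279), 3 to 1122 with GW1516 (570) and 1 to 661 with palmitate (151). They ran from 9 to 249 between retinoic acid and TTNPB (34), 2 to 195 between retinoic acid and GW1516 (78), 0 to 66 between TTNPB and GW1516 (15), 192 to 1449 for the palmitate minus retinoic acid effect (568) and 8 to 849 for the palmitate minus GW1516 effect (280). No pairing of the samples by the replicate numbers of the labels was evident. Deviations correlated over 0.1 in 5 of 21 same-numbered pairs (range over the 21 pairs -0.28 to 0.212), which cannot exclude a pairing. With the number as a block no receptor gene gained or lost a call, with adjusted p of 0.0405 for Rara with GW1516 and 0.0387 for Rxrb with palmitate. With 3 arrays a group, 1 probe set a gene and an unstated normalization, small changes of the receptor genes cannot be resolved, and Rarb in full medium and Rxrg in charcoal serum have no measurable level.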
